A study of Homo sapiens with 4 samples.

Results

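FGGY is a human gene on chromosome 1 that encodes a carbohydrate kinase of the FGGY family, a family of enzymes that add phosphate to sugars and related polyols. A circRNA forms when the end of a downstream exon is joined back to the start of an upstream exon, and a sequencing read across that back-splice junction is the only part of the circle that sets it apart from the linear transcript. The closed loop has no free ends for exonucleases, and circRNAs are found in exosomes, the small vesicles that cells release. A junction read says nothing of the level of FGGY mRNA or protein.

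The FGGY circles were chosen by host gene name, with their junction reads already known: all 5 circRNAs that the table assigned to FGGY were taken, of 12571 circRNAs listed and 9405 with a read. Total RNA depleted of rRNA came from exosomes of pancreatic cancer cells, with control cells behind libraries A1 and A2 (group A) and cells given 10 Gy of X-rays behind B1 and B2 (group B). Every sample carries the same list of established lines, BxPC-3, MIA PaCa-2, PANC-1 and SW1990. Which line a library came from is unresolved, and nothing says that the 2 samples of a group are separate cultures. For the second sample of group B, column B2 was used because its name alone matches the title, but the number of circRNAs in that column differs from the number the study lists for its B2. Whether the column holds that sample is open, and every B2 value below, the zeros included, carries this doubt. In such bulk preparations, fewer vesicles of a kind and less of an RNA in each vesicle cannot be told apart.

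The libraries held 5756 to 15150 junction reads, and their makeup differed between the groups before any single gene is considered. A1 held 3 reads of exonic circRNAs among 6544 and A2 held 4 among 8094. B1 held 10068 exonic reads among 15150 (66.5%) and B2 held 2066 among 5756 (35.9%). With 7 exonic reads in group A, a host gene with none of them could still hold up to 42.9% (3 counts of 7). Markers of pancreatic duct epithelium were thin as circRNA hosts, with 2 of 9 showing a read (EPCAM with 2 reads in B1, CFTR with 2 in A1) and none for KRT19, KRT7, KRT8, KRT18 or MUC1. A read was also seen for 1 of 9 acinar markers, 2 of 8 stromal markers (COL3A1 with 8 reads in B2, PDGFRB with 3 in A1) and 2 of 9 blood markers.

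All FGGY circles lay in the first part of the gene (hg19, chr1:59762766-60228402, plus strand). In GENCODE the main transcript has 16 exons over 466 kb, and its start codon lies in exon 2 at position 59787222. Exon 5 ended 81.7 kb from the start of exon 1, which is 17.6% of the gene's span, and no FGGY circRNA of the table used exon 6 or any later exon. The first circle, hsa_circ_0000075, spanned chr1:59787208-59812070 and joined exon 4 back to exon 2, with a predicted length of 479 nt. The second, hsa_circ_0005354, spanned chr1:59787208-59844509 and joined exon 5 back to exon 2, for 568 nt. The third exonic circle, hsa_circ_0006633, spanned chr1:59805630-59844509, joined exon 5 back to exon 3 and was predicted at 353 nt. A sense overlapping circRNA, hsa_circ_0004415, spanned chr1:59787208-59877039 and ended inside intron 5, 32530 nt past exon 5. The last was an antisense circRNA without a circBase identifier, listed on the minus strand at the same start and end as hsa_circ_0005354.

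The back-splice junctions of the 4 plus-strand circles are shown because these bases are what the reads had to cross. Each line holds 15 bases before the junction in lower case and 15 bases after it in capitals, 5′ to 3′ on the plus strand of GRCh37.
hsa_circ_0000075: ctgtggctgaaagagGTGGAGGAACTGCAA
hsa_circ_0005354: aggtgtcacagcacgGTGGAGGAACTGCAA
hsa_circ_0004415: tttatcgtatcacagGTGGAGGAACTGCAA
hsa_circ_0006633: aggtgtcacagcacgAAAGTTGTACAAGGG
The capitals are the same in the first 3 lines, where all circles resumed at the start of exon 2, and differ in the last, which resumed at exon 3. The lower-case part is the same in hsa_circ_0005354 and hsa_circ_0006633, which both left from the end of exon 5. The circles thus shared splice sites and were not independent of each other.

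The splice sites are shown to set the intronic end beside the exonic ones, with the AG before an exon or the GT after it in capitals.
start of exon 2: tgcttactatAGgtggagga
start of exon 3: tttttaaaacAGaaagttgt
end of exon 4: tgaaagagGTgagtgcatag
end of exon 5: acagcacgGTatgttaatta
end in intron 5: tatcacagGTgatgtgaact
The end of hsa_circ_0004415 matched no exon end in GENCODE, yet GT followed it as at the annotated ends. AG before and GT after were present on the listed strand for all 2410 circBase circRNAs with a read, so the motif does not set FGGY apart.

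Exons 3, 4 and 5 are printed because in this order they make up the predicted sequence of hsa_circ_0006633, the FGGY circle with the most reads.
exon 3 (112 nt): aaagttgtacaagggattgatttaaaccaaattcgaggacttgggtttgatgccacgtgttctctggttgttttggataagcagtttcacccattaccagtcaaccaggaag
exon 4 (152 nt): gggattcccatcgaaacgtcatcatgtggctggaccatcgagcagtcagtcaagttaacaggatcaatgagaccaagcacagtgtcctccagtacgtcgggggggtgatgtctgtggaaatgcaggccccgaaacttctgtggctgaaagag
exon 5 (89 nt): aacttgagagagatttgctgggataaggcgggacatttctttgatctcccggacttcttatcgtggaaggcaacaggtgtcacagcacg
None of the 3 exonic circles had a length divisible by 3. Read in the frame of the FGGY protein, hsa_circ_0006633 met a stop codon 22 nt past its junction. From the start codon in exon 2, hsa_circ_0005354 met one 136 nt past the junction and hsa_circ_0000075 237 nt past it. These are readings of the sequence, and no measurement here bears on translation.

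**Figure D1:**
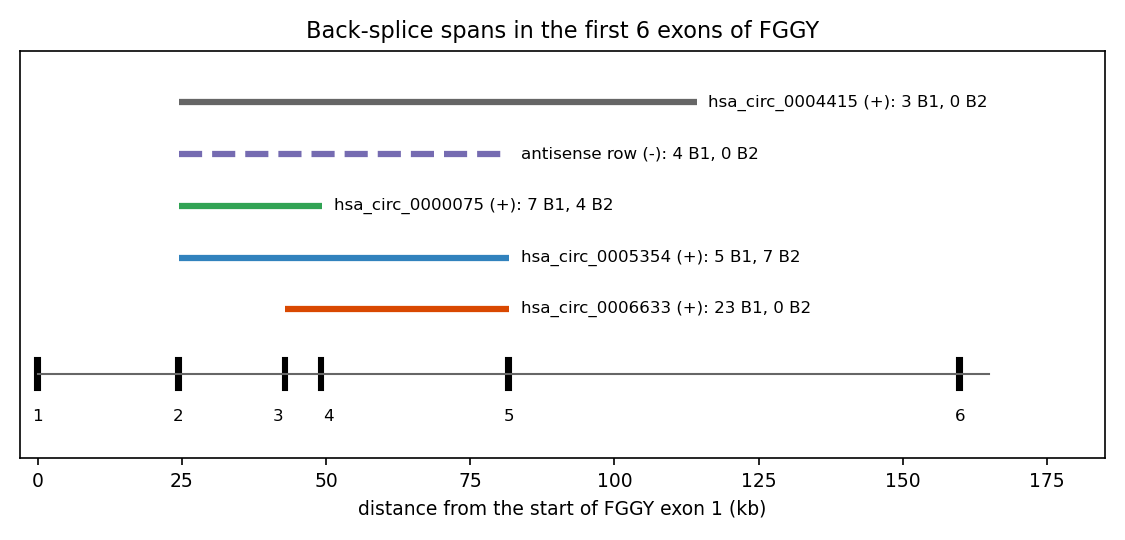
The horizontal axis is distance from the start of FGGY exon 1 in kb, black boxes are exons 1 to 6 (widened to be visible), and each bar spans one circRNA from its back-splice start to its end, dashed for the minus strand. Labels give the junction reads in B1 and B2; 4 of the 5 bars start at exon 2 and 3 end at exon 5.

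Both irradiated libraries held FGGY junction reads, and the control libraries held none. Over the 5 circRNAs, A1 had 0 reads of 6544, A2 had 0 of 8094, B1 had 42 of 15150 and B2 had 11 of 5756. As a share of junction reads this was 0.277% in B1 (Wilson 95% interval 0.205 to 0.374) and 0.191% in B2 (0.107 to 0.342), with a mean of 0.234% ± 0.0609 (SD, n = 2). The groups did not overlap. Of 4670 hosts with a read, 442, FGGY among them, had reads in both irradiated libraries and none in the controls. The intervals of B1 and B2 overlapped. The 0 of 14638 control reads allows a share of up to 0.0205% (3 counts over the group). With the reads of both irradiated libraries pooled, 53 of 20906 (0.254%), group B was at 12.4-fold this control limit. B1 supplied most of these reads, and the fold over the limit was 13.5 from B1 alone and 9.32 from B2 alone. It fell to 6.84-fold without A1 and 5.53-fold without A2, where fewer control reads set the limit. The gene was chosen with these reads known, so this is a description and carries no test. The intervals and the floor cover counting error only. The folds take the irradiated reads as counted, without their counting error, and are not lower bounds.

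The denominator also entered the fold. Chromosome M supplied 1453 reads in A1 and 1225 in A2 against 40 in B1 and 72 in B2. It took up part of the control reads, and without it the fold over the control limit was 10.2. Among exonic reads alone, the 3 exonic FGGY circles made up 35 of 10068 in B1 (0.348%, 0.250 to 0.483) and 11 of 2066 in B2 (0.532%, 0.298 to 0.951). On that scale B2 was the higher of the irradiated libraries. The control libraries had 0 of 7, and no fold can be given. How far the FGGY difference goes beyond the difference in exonic reads was not tested.

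The circle with the most reads was seen in B1 and not in column B2. hsa_circ_0006633 had 0 reads in A1, 0 in A2, 23 in B1 and 0 in B2. B1 stood above all 3 other libraries, and the irradiated libraries differed from each other as much as B1 differed from the controls. Its share was 0.152% of B1 reads (0.101 to 0.228) against 0 of 5756 in B2, for which the Wilson interval reaches 0.0667%. At the B1 share, 8.74 reads would fall in B2, or 4.72 if scaled by exonic reads. It was 1 of 26 circRNAs of any host that had 23 or more reads in B1.

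Reads of the other exonic circles came from both irradiated libraries. hsa_circ_0005354 had 0 reads in A1 and A2, 5 in B1 and 7 in B2. Pooled over group B, as counted, this was 2.80-fold the control limit of 3 counts. hsa_circ_0000075 had 0, 0, 7 and 4 reads, 2.57-fold that limit. Each rested on at most 7 reads a library. The Wilson intervals of the control zeros reached 0.0587% in A1 and 0.0474% in A2. In B1 the interval started below both, at 0.0141% for hsa_circ_0005354 and 0.0224% for hsa_circ_0000075. In B2 it started at 0.0589% and 0.0270% in the same order. The remaining circRNAs were seen in B1 only, hsa_circ_0004415 with 3 reads and the antisense circRNA with 4, too few for a fold over the floor.

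**Figure D2:**
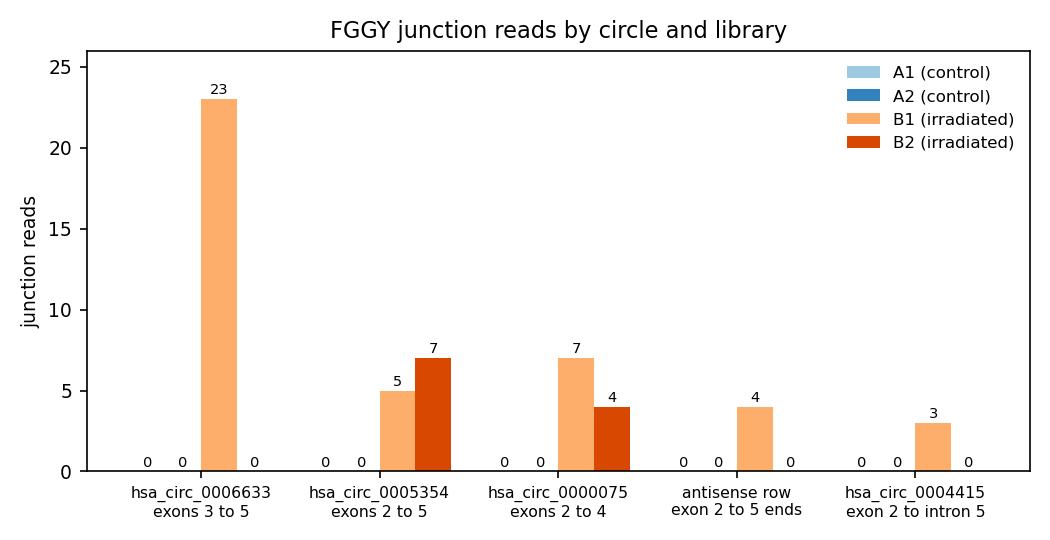
Bars give junction reads (vertical axis, counts) of each FGGY circRNA in the control libraries A1 and A2 and the irradiated libraries B1 and B2, with the count above each bar. All control bars are at 0, and the highest bar, hsa_circ_0006633 with 23 reads in B1, has 0 in B2.

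The mix of circles is set side by side for B1 and B2, with no test. hsa_circ_0006633 made up 23 of 35 exonic FGGY reads in B1 (65.7%, exact interval 47.8 to 80.9) and 0 of 11 in B2 (up to 28.5%). hsa_circ_0005354 made up 14.3% in B1 (4.81 to 30.3) and 63.6% in B2 (30.8 to 89.1). Shares within a library sum to the whole, so the second difference in part restates the first, and each side is 1 library. hsa_circ_0000075 made up 7 of 35 in B1 and 4 of 11 in B2, with intervals that overlapped. By their predicted sequence all 3 exonic circles hold exons 3 and 4. They differ in the ends that were joined, and so in whether exon 2 and exon 5 are held. Junction reads show the joined ends and not the exons between them.

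In the edgeR quasi-likelihood fit over all circRNAs with at least 5 reads, 3 FGGY circles were tested and 1 was called higher at the study's thresholds, a fold change above 2 with p below 0.05 before adjustment. It was hsa_circ_0006633, the circle with no read in B2. Over all 1957 circRNAs tested 3.53% were called higher and 0.204% lower, and nothing is read from the FGGY count because the gene was chosen on this contrast. No FGGY circle passed after Benjamini-Hochberg adjustment, where 0.102% of all circRNAs tested (2) passed as higher. The FGGY call was lost when either control library was left out. Without B1, hsa_circ_0005354 was the single FGGY circle still tested. With either irradiated library left out, group B is 1 library, assumed to vary as the controls do. Such fits do not show how irradiated samples vary, so no call is read from them.

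The antisense circRNA lay at the exact ends of hsa_circ_0005354, and its AG and GT were on the plus strand, not on the strand listed. In B1, 4 of the 9 reads at this position were on the other strand (44.4%, exact interval 13.7 to 78.8), and in B2 0 of 7 (up to 41.0%). Such pairs occurred elsewhere in the table: 133 of 2410 circBase circRNAs (5.52%) had a circRNA at the same position on the opposite strand. So did 54 of the 272 with 9 or more reads over the 4 libraries (19.9%), among which hsa_circ_0005354 falls. In 133 of 133 the motif was found on the circBase strand only. All 2410 circBase circRNAs had it there and the same bases cannot show it on both strands, so the shared position fixed this. HIPK3 had 7 of 116 reads on the other strand in B1 (6.03%), CAMSAP1 15 of 58 (25.9%) and SETD3 3 of 41 (7.32%). Summed over the 133 pairs the other strand held 24.1% of reads in B1 and 38.0% in B2. What placed these reads on the other strand was not tested. Without the antisense circRNA, FGGY held 49 reads.

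Compared with other exonic circBase circles, the FGGY circles were ordinary in length and were flanked by long introns. Exons were matched for 2194 of 2223 such circles, with a median length of 440 nt, and the FGGY circles fell at the 55.6, 64.5 and 37.3 percentiles of length for hsa_circ_0000075, hsa_circ_0005354 and hsa_circ_0006633. Their flanking introns summed to 56.7, 102.5 and 96.3 kb in the same order, against a median of 19.2 kb, which put them at the 83.5, 94.1 and 93.4 percentiles. GC content was 51.4, 51.1 and 48.7% against a median of 43.9%. A complementary match of at least 100 nt between the 1000 nt on either side was found for 0 of 3 FGGY circles and for 775 of the 2187 circles with introns on both sides (35.4%), FGGY included. The circles share introns, so these are not separate observations.

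**Figure D3:**
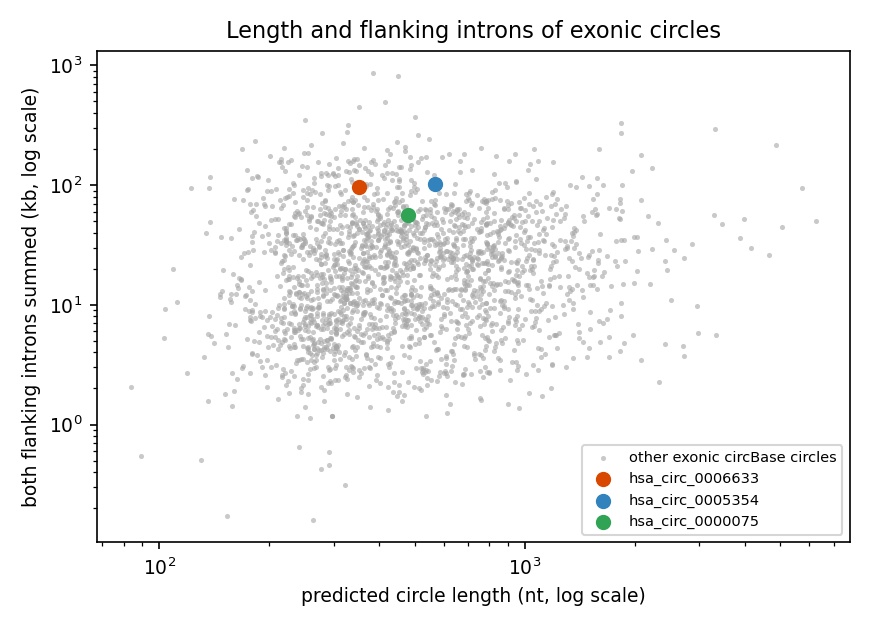
Each point is an exonic circBase circle, with predicted length (nt, log scale) against the summed length of both flanking introns (kb, log scale). The FGGY circles sit near the middle of the length range and at 56.7 to 102.5 kb of intron, above the median of 19.2 kb.

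Short matches to miRNA seeds, the bases of a miRNA that pair with a target, were about as frequent in hsa_circ_0006633 as in circles of like size. Of 1915 seeds from the RefSeq miRNA table, 56 had a match, against a median of 51 (24 to 85) over 405 circles of 300 to 399 nt. The median circle of that size had 1 seed with 2 or more matches (highest 13). In hsa_circ_0006633 a single seed matched at 2 places, at positions 137 and 251 counted from the start of exon 3. It belongs to hsa-miR-449b-3p, shown with its seed (bases 2 to 8) in capitals.
hsa-miR-449b-3p: cAGCCACAacuacccugccacu
The matching letters in the circle are TGTGGCT, present at least once in 4.69% of circles of that size and 2 or more times in 0.494%. Both shares include hsa_circ_0006633. The seed was named for its 2 matches, so its share does not make the circle unusual. A match is a description of letters and not a binding site.

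As a host gene FGGY ranked 18 of 4670 by reads over the 4 libraries, 12 by B1 and 29 by B2, a B2 number it shared with other hosts. Off chromosome M, 9 hosts including FGGY had 53 or more reads. It was among 154 of 1800 hosts (8.56%) with 3 or more exonic circles and among 442 hosts with reads in both irradiated libraries and neither control library. The 5 hosts whose reads lay nearest, by summed absolute difference over the 4 libraries, were UBAP2, RARS, SETD3, SLC8A1 and ARHGAP10. In the order A1, A2, B1, B2, UBAP2 had 0, 0, 40 and 7 reads. RARS and SETD3 each had 0, 0, 43 and 5. SLC8A1, a sodium and calcium exchanger, had 2, 0, 47 and 13, and was the one with a control read. ARHGAP10 had 0, 0, 45 and 4. These 5 hosts were picked for their likeness to FGGY, so their sharing of its pattern was set by the choice. By the count of 442 among 4670 hosts, FGGY was not alone in having reads in both irradiated libraries and none in the controls.

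**Figure D4:**
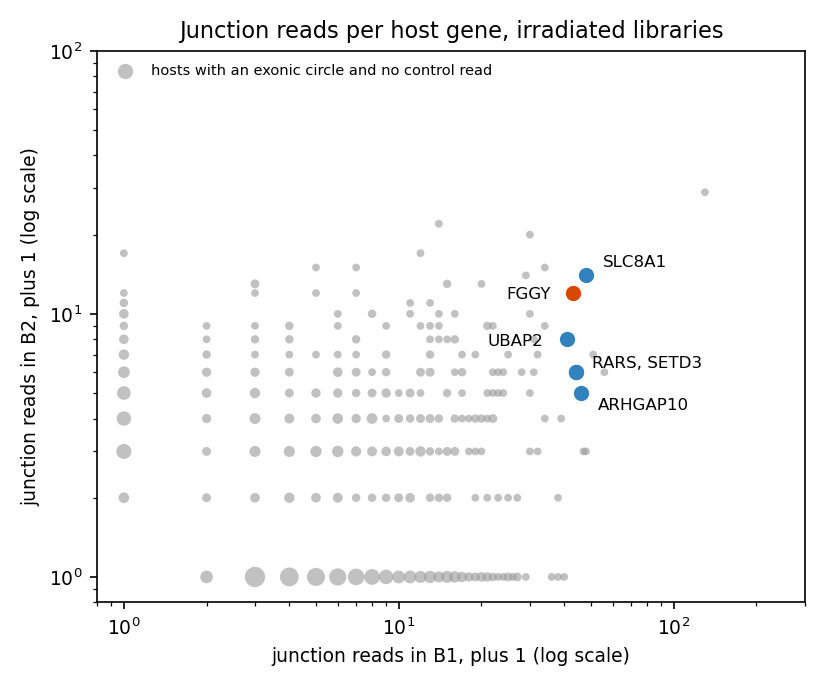
Each grey point is a host gene with an exonic circle and no control read, larger where several share a position, with junction reads plus 1 in B1 and B2 on log axes. FGGY (orange; 42 and 11 reads) lies beside the 5 hosts nearest to it in reads (blue), of which SLC8A1 had 2 control reads.

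Other genes of sugar phosphorylation gave few junction reads. Of the 8 symbols listed for the FGGY family, the only other with a read was GK, glycerol kinase, with 2 in A2. Of 27 symbols of other sugar kinases 7 had a read, led by GALK2, an N-acetylgalactosamine kinase, with 0, 0, 8 and 2 reads. ADPGK, which phosphorylates glucose with ADP, had 2 reads in A1 and 2 in B2. Of 22 symbols of the pentose phosphate pathway 2 had a read, PRPS2 with 5 in B1 and RBKS, ribokinase, with 3 in A2. In each of these last 2 lists 1 circRNA was tested and 0 were called.

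Within 1 Mb of the FGGY circles the table listed 9 circRNAs of other hosts or of none, of which 6 had a read. OMA1, a mitochondrial metalloprotease, had 3 exonic circles with 0 reads in either control library, 16 in B1 and 4 in B2. Exonic reads over all hosts were also most in B1 (10068), then B2 (2066), with 3 in A1 and 4 in A2. HOOK1 had 4 reads in A2 alone and C1orf87 had 2 in A1 alone. An intergenic circRNA had 3 in A2, and those of DAB1 and MYSM1 had none.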

How the data were processed

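Exosome total RNA of 2 control and 2 irradiated samples was sequenced. Trimming by the authors used cutadapt 1.9.3, alignment STAR 2.5.1b with hg19, and junction calling DCC. The deposited counts are whole junction reads per circRNA and library, not normalized. Deposited log2 values from edgeR were not used. Columns were matched to samples by title, and 2 columns of junction reads (4 of per-library values) that match no sample were not used; the second irradiated column of the study's own supplementary table is one of these and not the B2 used here, so which column holds the second irradiated sample is open. FGGY, the gene lists and the naming rule (all FGGY circRNAs, the 5 nearest hosts, up to 3 per list, neighbours within 1 Mb, up to 3 circRNAs on both strands) were chosen with earlier results of these data known. One member of a list is not reported here.

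After TMM scaling, circRNAs with at least 5 reads were tested in edgeR 4.0.16 (R 4.3.3, quasi-likelihood, Benjamini-Hochberg), after a test on simulated data. The simulated data had more reads and far less spread between libraries than these data (common dispersion 4.18). That test therefore does not show how well the fit works here. DESeq2 1.42.0 was an alternative. It was first run with positive-count size factors and then, after that result was seen, with its default, and both are reported. Intervals are Wilson or exact at 95% (scipy 1.17.1), with a floor of 3 counts. Exons came from GENCODE v44lift37 on GRCh37, complementary matches from BLAST 2.17.0, and miRNAs from RefSeq (GRCh38.p14 table).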

Additional observations from a re-analysis of the deposited data

How the results depend on the processing

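The 1 FGGY call, of 69 circRNAs called higher and 4 lower, depended on the processing. Counts below are higher, lower and FGGY circles higher. RLE size factors gave 14, 0 and 0, no scaling factors 7, 25 and 0, and mapped reads as library sizes 21, 16 and 0. No filter gave 42, 9 and 0, with 9405 circRNAs tested, 5 of them of FGGY. DESeq2 with default size factors gave 12, 0 and 0, and with positive-count size factors, an alternative added after seeing the data, 3, 5 and 0. With 1957 circRNAs and 3 FGGY circles tested, as in the TMM fit, the newer form of glmQLFit gave 179, 11 and 3. edgeR's own filter kept 21 circRNAs and none of FGGY, and gave 4 and 9. With the replicate number as a block the counts were 73, 5 and 2. The deviations of A1 and B1 from their group means had a correlation of 0.022. With so few exonic reads in group A, this cannot show whether the numbers pair the samples. Leaving out each library in turn gave 5 to 367 higher, 0 to 19 lower and 0 to 1 FGGY circles, with the lone library of a group assumed to vary like the other group. The cause was not tested. Against TMM, the median log2 change of tested circRNAs was 0.81 higher with RLE and fell by 1.31 without scaling. It turned negative without B1 (-4.06, 819 tested) and with edgeR's own filter (-1.37, 21 tested), where fewer circRNAs were tested.

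The FGGY share of 0.234% was 0.475 per 100 exonic reads, which is no share because 7 of the FGGY reads are not exonic (the 3 exonic circles made up 0.440%), and 0.191 to 0.277% leaving out each library. The fold of 12.4 over the control limit was 16.5 with the study's mapped reads, whose B2 may be another library than column B2. It was 5.53 to 13.5 leaving out each library. These alternatives for the fold were added after seeing the data. Every FGGY circle rested on at most 23 reads a library, and 7 exonic control reads bound FGGY among exonic reads only loosely, at up to 42.9%.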
